A study of Mus musculus with 6 samples.

Results

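The transcription factors that specify and mature skeletal muscle were followed in cultured muscle cells with and without a knockout of Sfpq, a nuclear RNA-binding protein of transcription and splicing. The set was listed by name and holds 8 genes: the satellite cell factor Pax7, the 4 myogenic bHLH factors Myf5, Myod1, Myog and Myf6, and the Mef2 factors Mef2a, Mef2c and Mef2d. A value was found for 7 of them among the 34655 genes in the tables, and all 7 were among the 12460 genes tested; Mef2c was not analysed here. Myoblasts, the dividing precursors of muscle fibres, came from skeletal muscle of male mice aged 1 month, either SfpqSM-KO (Sfpq knockout, n = 3 libraries) or control (n = 3 libraries). Cells of both genotypes were grown in F-10 with a growth factor, bFGF (2.5 ng/mL), in 20% serum of fetal calves, and were then held in 2% horse serum for 4 days, a low-serum medium in which myoblasts stop dividing and fuse into multinucleated myotubes. The sources used here do not give the alleles, the promoter that drives the deletion or the genotype of the control mice. The design counts 3 mice per genotype but no label assigns a mouse to a library, so every p-value reflects library-to-library spread alone, and that spread may be technical.

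Muscle is built by a relay of transcription factors. Pax7 marks satellite cells, the stem cells of adult muscle, and is shut off as cells differentiate. Myf5 and Myod1 commit a cell to the muscle lineage and are therefore called determination factors, while Myog (myogenin) and Myf6 (also known as MRF4) act later, in cells that leave the cell cycle and turn into fibres. These 4 proteins share a basic helix-loop-helix domain, pair with E proteins and bind the E-box. Mef2 proteins are MADS-box factors that bind an A/T-rich site and work together with the bHLH factors on muscle genes, among them Myog itself. In a differentiating culture a pool of Pax7-positive reserve cells stays single and undifferentiated beside the myotubes.

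The promoter of Myog shows both kinds of site, and it is printed because the Myog level is the largest of the set and because its inputs are other members. RefSeq windows of 250 bases before to 50 bases after a gene start (GRCm38.p6) were found for 5 of the 7 measured members: Pax7, Myf5, Myog, Mef2a and Mef2d. The motifs searched were the E-box, CANNTG, and the core of the Mef2 site, which is TA, then 4 letters that are each A or T, then TA. Both read alike on the opposite strand, so both strands were covered, and no match of one overlapped a match of the other. Capitals mark the matches in the windows of Myog (chr1:134289754-134290053, plus strand) and Mef2a (chr7:67372809-67373108, minus strand), each written 5′ to 3′ along the gene.
Myog: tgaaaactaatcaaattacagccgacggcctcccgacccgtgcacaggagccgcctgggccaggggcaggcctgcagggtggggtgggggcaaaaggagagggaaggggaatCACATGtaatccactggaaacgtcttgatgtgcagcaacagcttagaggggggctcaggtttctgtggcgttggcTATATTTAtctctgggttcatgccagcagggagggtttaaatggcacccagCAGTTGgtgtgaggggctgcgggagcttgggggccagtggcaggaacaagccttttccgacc
Mef2a: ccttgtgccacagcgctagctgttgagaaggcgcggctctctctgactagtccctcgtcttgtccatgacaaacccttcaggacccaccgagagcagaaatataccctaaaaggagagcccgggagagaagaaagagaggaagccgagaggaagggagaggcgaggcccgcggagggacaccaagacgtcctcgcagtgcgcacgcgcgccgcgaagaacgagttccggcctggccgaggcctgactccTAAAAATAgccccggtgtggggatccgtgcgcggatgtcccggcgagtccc
The Myog window held 2 E-boxes, which begin 138 and 12 bases before the start, and 1 Mef2 core, which begins 63 bases before it. The Mef2a window held 1 Mef2 core directly at the start and no E-box. The windows of Pax7, Myf5 and Mef2d held neither motif, which says only that these letters are not in these windows. Among all 32851 promoter windows, 72.3% held an E-box, 39.6% held 2 or more and 9.32% held a Mef2 core, and 7.01% held both motifs. Among the 12157 windows of genes tested here these shares were 64.0%, 28.8%, 4.78% and 3.43%. A match is a description of the letters and not a binding site.

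Sfpq itself checked the labels. It stood at 18.3, 19.3 and 14.1 TPM (transcripts per 1000000 transcripts, a level corrected for transcript length) in knockout replicates 1 to 3 and at 48.6, 60.5 and 49.9 TPM in the controls. Every knockout library lay below every control library (log2 difference −1.57, SE 0.15, limma adjusted p = 0.0529). Read depth cannot be recovered from TPM and is unknown for every library. The cultures expressed differentiated muscle genes, with skeletal actin Acta1 between 22816 and 34413 TPM, while the endothelial, leukocyte and Schwann cell markers summed to at most 0.451, 1.46 and 1.46 TPM in any library, and those of adipocytes and of smooth muscle and pericytes to at most 1.85 and 5.0 TPM. The leukocyte markers Ptprc and Adgre1 were listed at 0 in all 6 libraries. Control replicate 1 had the lowest correlation with the others (median r over genes 0.9756, against 0.981 to 0.983 for the other 5), and the members' differences that rest on it are given with and without it. Control replicate 2 had the lowest mean r with its own group (0.977, against 0.9788 for control replicate 1).

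Myog was the most abundant member in every library of both genotypes. Over all 6 libraries the mean level ran from Myog (1929 TPM) through Myod1 (527.8), Mef2d (186.9), Mef2a (145.4), Myf6 (124.1) and Myf5 (29.8) to Pax7 (16.2 TPM). Myog ranked between the 36th and the 96th most abundant of the genes tested, whereas Pax7 ranked between 5791 and 7288. Myog exceeded Myod1 by 3.04 to 4.74 times within each library, and the ranges of Myog, Myod1 and Mef2d over libraries did not overlap. In 3 pairs of neighbours the ranges overlapped: Mef2d and Mef2a, Mef2a and Myf6, and Myf5 and Pax7. Of these pairs, Mef2a exceeded Myf6 in 5 of 6 libraries and the other pairs kept their order in all 6.

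**Figure D1:**
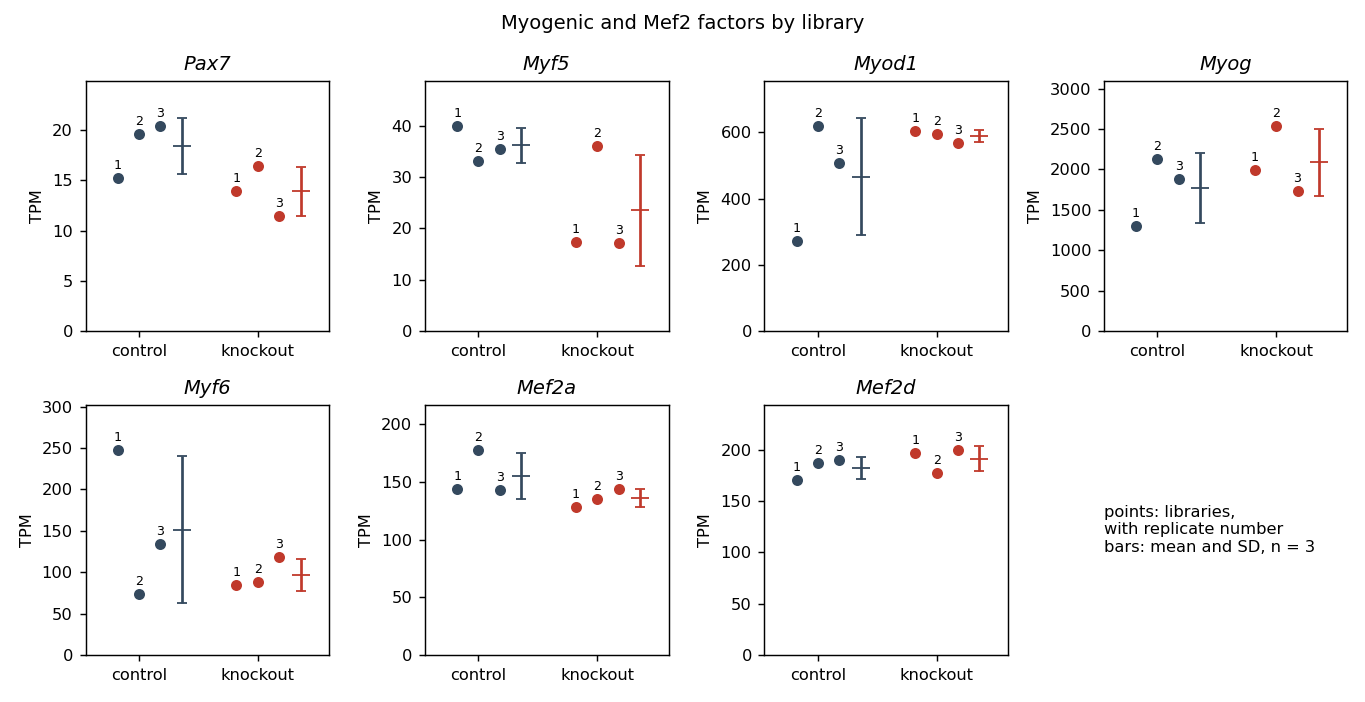
Level (TPM, vertical axis from 0) of 7 myogenic and Mef2 factors in control and knockout libraries; points are libraries with their replicate number, bars are mean and SD (n = 3). Control replicate 1 has the lowest Myod1 (273.6 TPM) and Myog (1297 TPM) and the highest Myf6 (247.7 TPM) of the 6 libraries.

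The design compares knockout with control cultures, and no member passed the test across all genes. Levels were compared as log2(TPM + 1) with limma's moderated test, adjusted by Benjamini-Hochberg over all genes tested, and differences are knockout minus control on that scale, which understates changes of low genes. Of the 7 members, 0 had an adjusted p under 0.05, as did 0 of 12460 genes (0.0%), and the members' adjusted p ran from 0.394 to 0.778. The smallest adjusted p of any gene was 0.0529. At an unadjusted p under 0.05 there was 1 member, Myf5, on the lower side, where 9.62% of all genes tested lay, and 0 on the higher side, where 2.68% lay. Myf5 was no longer under that level with median-of-ratios or quantile scaling, with the replicate block, with no filter on low values or with no trend, nor with any 1 library left out other than knockout replicate 2. The split of all genes was 1199 lower and 334 higher as deposited, and 709 lower and 719 higher after median-of-ratios scaling. Members whose knockout and control libraries did not overlap numbered 0 of 7, against 15.3% of all genes lower and 4.27% higher. The members' median log2 difference was −0.18, with 4 lower and 3 higher, beside a median of −0.07 over all genes, of which 64.5% were lower.

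**Figure D2:**
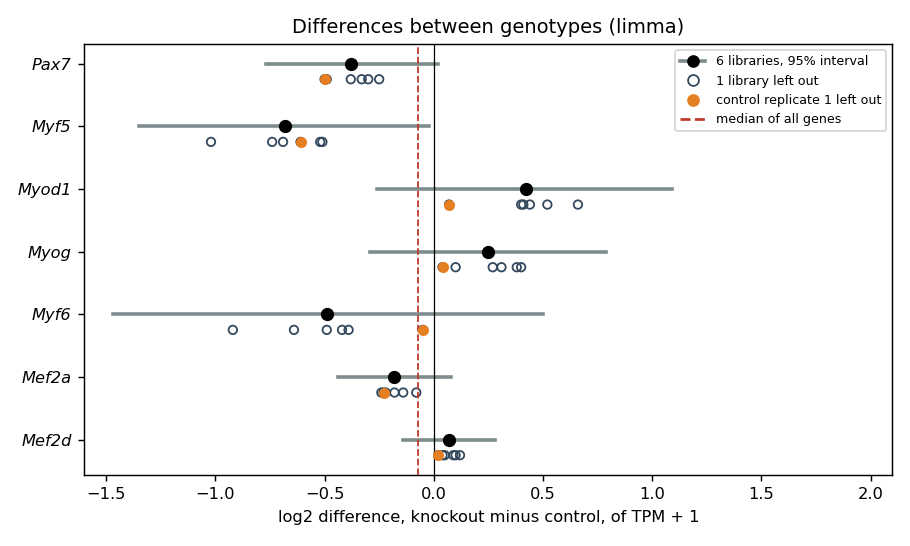
Log2 difference of TPM + 1 (horizontal axis, knockout minus control) for each factor with its 95% interval from limma (black point, grey bar), and the same difference with 1 library left out (open circles; filled orange without control replicate 1; dashed line, median of all genes, −0.07). The interval of Myf5 ends at −0.02 and the other 6 span 0; without control replicate 1 the values of Myod1, Myog and Myf6 lie at 0.07, 0.04 and −0.05.

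Among the factors of the undifferentiated state, both values lay below control on average. Pax7 (chromosome 4, 139737059 to 139833530 in GRCm38) stood at 13.9, 16.4 and 11.5 TPM in knockout replicates 1 to 3 and at 15.2, 19.6 and 20.4 TPM in control. The groups overlapped by a single crossing, since knockout replicate 2 exceeded control replicate 1. The log2 difference was −0.38 (SE 0.16, 95% interval −0.77 to 0.02, limma adjusted p = 0.42), and it was −0.50 without control replicate 1 and −0.25 without knockout replicate 3. In bulk cultures, fewer cells of a type and less RNA per cell cannot be told apart.

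Myf5, the earliest bHLH factor to appear in the muscle lineage, split the knockout libraries. It stood at 17.4, 36 and 17.1 TPM in knockout replicates 1 to 3 and at 39.9, 33.2 and 35.4 TPM in control. Knockout replicate 2 lay among the controls, and knockout replicates 1 and 3 lay well below all of them. The log2 difference was −0.68 (SE 0.28, interval −1.35 to −0.02, adjusted p = 0.394), and it was −1.02 without knockout replicate 2 (adjusted p = 0.0862). The 4 proliferation markers Mki67, Top2a, Ccnb1 and Cdk1 were likewise highest, among the knockouts, in replicate 2. Their summed level was 4.53, 14.3 and 9.20 TPM in the knockouts and 17.8, 13.2 and 13.9 TPM in the controls, and Top2a, a topoisomerase of dividing cells, stood at 4.74 TPM in knockout replicate 2 against 0.689 and 1.77 in replicates 1 and 3. The part of dividing cells in the Myf5 values was not tested.

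Myod1, the master determination factor, was set apart in 1 control library. It stood at 603.9, 595.6 and 568.6 TPM in knockout replicates 1 to 3 and at 273.6, 618.7 and 506.3 TPM in control. Control replicate 1 was the lowest of the 6 and control replicate 2 the highest. The log2 difference of 0.42 (SE 0.28, interval −0.26 to 1.09, adjusted p = 0.579) was 0.07 without control replicate 1 and was 0.66 without control replicate 2.

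Myog, which acts as cells turn into fibres, gave 1996, 2536 and 1729 TPM in knockout and 1297, 2128 and 1888 TPM in control. The groups overlapped broadly, again with control replicate 1 lowest. The log2 difference was 0.25 (SE 0.23, interval −0.29 to 0.79, adjusted p = 0.681), and 0.04 without control replicate 1.

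Myf6, the bHLH factor most abundant in mature fibres, showed the mirror image. It lies on chromosome 10 (107492848 to 107494723), 5.92 kb from Myf5 (107482908 to 107486927) on the same strand. Its levels were 84.1, 87.7 and 118.8 TPM in knockout and 247.7, 73.1 and 133.5 TPM in control, so control replicate 1 was highest and control replicate 2 lowest of all libraries. The log2 difference was −0.49 (SE 0.41, interval −1.47 to 0.50, adjusted p = 0.66), with −0.05 without control replicate 1 and −0.92 without control replicate 2. Although they are neighbours in the genome, Myf5 and Myf6 did not share a pattern: their log2 levels had an r of 0.35 over 6 libraries and −0.08 over the 5 without control replicate 1.

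The Mef2 factors varied least. Mef2a (chromosome 7, 67231163 to 67376456) stood at 128.3, 135.3 and 144.1 TPM in knockout and at 143.9, 177.9 and 143.0 TPM in control. Knockout replicate 3 lay just above control replicates 1 and 3, and the other knockout libraries lay below all controls. The log2 difference was −0.18 (SE 0.11, interval −0.44 to 0.08, adjusted p = 0.542), and −0.08 without control replicate 2. The span of Mef2a overlaps the protein-coding gene Lysmd4 on the opposite strand and 2 unclassified genes, Gm44667 and Gm44668, on its own strand. No source used here says whether counting used strand, and strand would not separate the genes on its own strand.

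Mef2d (chromosome 3, 88141941 to 88172091) gave 197.1, 177.0 and 199.9 TPM in knockout and 170.5, 186.6 and 190.1 TPM in control. Its highest and lowest library differed by 1.17 times, the smallest ratio of the 7 members. The log2 difference was 0.07 (SE 0.09, interval −0.14 to 0.28, adjusted p = 0.778) and 0.02 without control replicate 1; with all libraries, differences beyond 0.28 in either direction lay outside its interval. The antisense gene 1700113A16Rik overlaps its span on the opposite strand. Each measured member is given by a single RefSeq transcript in the tables, so splice forms, which matter for Mef2 proteins, were not compared. The other paralog, Mef2b, stood between 0.287 and 1.30 TPM and was below the filter on low values.

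**Figure D3:**
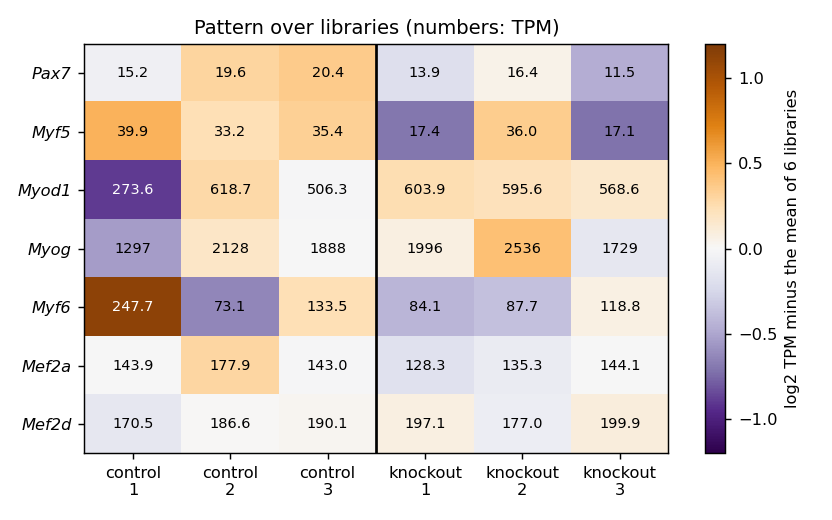
Level of each factor in each library, as log2 TPM minus the factor's mean over 6 libraries (colour) with the TPM value printed in the cell; controls left of the line, knockouts right. Myod1 and Myog are low and Myf6 high in control replicate 1, and Myf5 is low in knockout replicates 1 and 3.

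Within the set, Myod1 and Myog varied together across libraries and against Myf6, with control replicate 1 at one end for all 3. Over 6 libraries the log2 levels of Myod1 and Myog had r = 0.86, Myod1 and Myf6 r = −0.95, and Myog and Myf6 r = −0.88. Without control replicate 1 these values were 0.47, −0.93 and −0.61 over 5 libraries. Pax7 and Myf5 had r = 0.74, and 0.88 without that library. Myf5 and Mef2d had r = −0.85 both with and without it, whereas Myog and Mef2d went from 0.22 to −0.92 and Myf5 and Myog from −0.05 to 0.61. These values are descriptions of 6 libraries on a shared scale in which each library sums to the same total.

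Ratios between members are not altered by a scaling factor per library, and 1 of the 4 planned ones that were run separated the genotypes. With Mef2c not analysed, the shares of Mef2a and Mef2d among these 4 mirror each other and carry the same information. The log2 ratio of the early factors Pax7 and Myf5, summed, to the late factors Myog and Myf6, summed, was −6.05, −5.64 and −6.01 in knockout replicates 1 to 3 and −4.81, −5.38 and −5.18 in control. All 3 knockout libraries lay below all 3 controls, by 0.78 on average (−5.90 ± 0.23 against −5.12 ± 0.29, SD, n = 3, exact 2-sided permutation p = 0.1, the smallest that 3 against 3 allows). Adjusted over the 14 ratios, shares and sums computed here that p was 0.467. The difference lay between −0.91 and −0.62 with any 1 library left out. Both sums entered it. Pax7 plus Myf5 gave 31.3, 52.4 and 28.6 TPM in knockout and 55.1, 52.7 and 55.8 TPM in control. Knockout replicate 2 lay only a hair below control replicate 2. Myog plus Myf6 overlapped broadly, at 2184 ± 398 against 1923 ± 338.9 TPM (SD, n = 3). That sum was highest in knockout replicate 2 (2623 TPM) and lowest in control replicate 1 (1545 TPM).

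The share of Myf5 among the 4 bHLH factors followed the same order, with the same Myf5 values as the early to late ratio. It was 0.645%, 1.11% and 0.702% in the knockouts and 2.15%, 1.16% and 1.38% in the controls, so the groups did not overlap (exact 2-sided permutation p = 0.1, adjusted p over the 14 measures 0.467). Myog held 74.3 ± 3.44% of that sum in knockout and 72.7 ± 2.54% in control, and Myod1 held 21.3 ± 2.68% and 18.7 ± 3.6% (SD, n = 3). Myf6 held 2.56% to 5.21% in 5 libraries and 13.3% in control replicate 1. The summed bHLH level was 2797 ± 418.8 against 2425 ± 511.3 TPM, with overlap.

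The other planned ratios overlapped between genotypes. Myog exceeded Myod1 by 1.81 ± 0.25 in knockout and 1.98 ± 0.24 in control on the log2 scale (SD, n = 3, exact 2-sided permutation p = 0.5), a difference of −0.17, and of −0.03 without control replicate 1. Mef2a made up 39.4%, 43.3% and 41.9% of summed Mef2a and Mef2d in the knockouts and 45.8%, 48.8% and 42.9% in the controls. Only knockout replicate 2 crossed a control, and the difference was −4.28 percentage points (exact 2-sided permutation p = 0.2, n = 3 per group). The sum of Mef2a and Mef2d was 327.2 ± 15.9 and 337.3 ± 25.3 TPM.

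**Figure D4:**
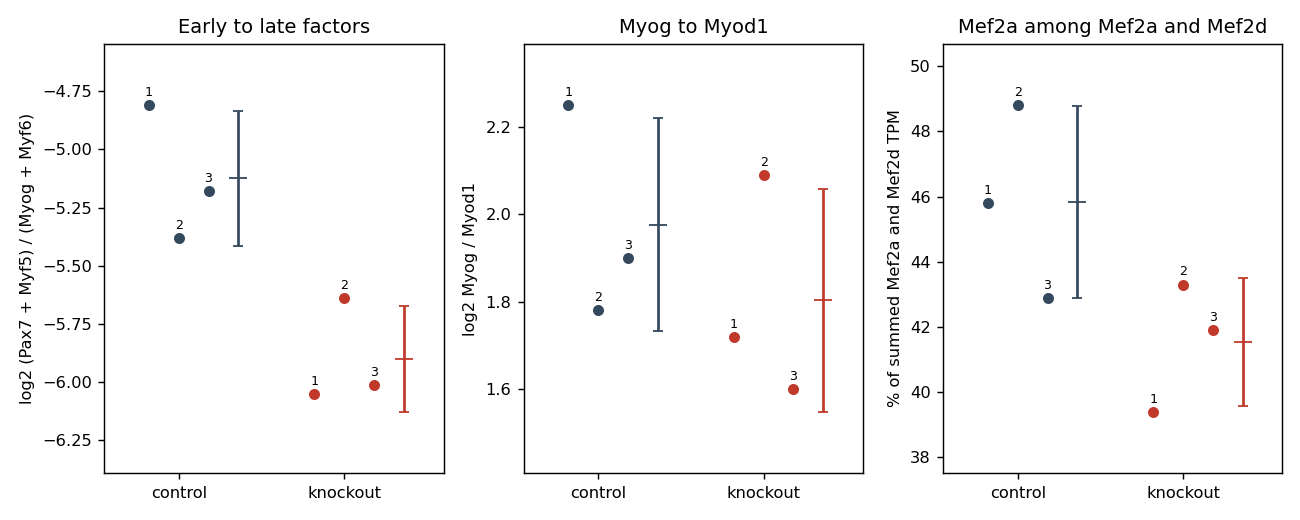
Ratios within the set by genotype: log2 of summed Pax7 and Myf5 over summed Myog and Myf6 (left), log2 of Myog over Myod1 (middle) and Mef2a as a percentage of summed Mef2a and Mef2d (right); points are libraries, bars mean and SD (n = 3), and the vertical axes do not start at 0. The left ratio is at or below −5.64 in the knockouts and at or above −5.38 in the controls.

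The genes whose levels over the 6 libraries were most like each member were found by Pearson's r of log2(TPM + 1) among 9577 genes with a mean of at least 5 TPM. With so few libraries high values are common: between 93 and 247 genes per member reached an r of 0.9. For Pax7 they were Greb1 (r = 0.991) and Pcif1 (0.988), and for Myf5 they were Parp2 (0.995) and Csrp1 (0.994). Myod1 was matched by Chordc1 (0.997) and S100a6 (0.995), the latter at 247.0 TPM in control replicate 1 and 652.6 to 928.6 TPM elsewhere. Myog was matched by Aebp1 (0.992) and Mafk (0.983). For Myf6 the nearest were Mybpc2 (0.985), the fast isoform of myosin-binding protein C, at 723.4 TPM in control replicate 1 and 191.4 to 333.0 TPM elsewhere, and Dusp23 (0.985). Mef2a was matched by Nod1 (0.997) and Ddx47 (0.987), and Mef2d by Klhl28 (0.993) and a transcript with no gene name.

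The proteins that hold the bHLH factors active or inactive were examined next. In limma, 0 genes of the 6 lists that follow had an adjusted p under 0.05, and counts at an unadjusted p under 0.05 are given for each list. Of all genes tested, 9.62% were lower and 2.68% higher at that unadjusted level. All 3 E proteins, the dimer partners, were measured, and 0 had an unadjusted p under 0.05: Tcf3 stood at 33.3 ± 0.311 and 32.1 ± 2.12 TPM, Tcf12 at 32.5 ± 1.09 and 34.9 ± 7.87 TPM, and Tcf4 at 21.2 ± 2.76 and 26.1 ± 4.29 TPM in knockout and control (SD, n = 3). Of 15 tested inhibitors of bHLH factors, 6 were above and 9 below control (median log2 difference −0.13), and 1, Msc, had an unadjusted p under 0.05. Msc (musculin), a repressor that competes for E-boxes, was at 1.51, 2.79 and 1.01 TPM in knockout and 4.40, 2.42 and 5.38 TPM in control. It crossed in one place, since knockout replicate 2 exceeded control replicate 2, and its log2 difference was −0.87 (adjusted p = 0.35). Mdfi, which holds bHLH factors in the cytoplasm, was at 12.2 ± 3.94 and 17.7 ± 3.52 TPM, with its highest knockout value in replicate 2, as for Myf5. Hes6 is counted among the 6 above control, though it antagonises Hes1 and is induced with differentiation. It was at 483.4 ± 39.9 and 335.9 ± 136 TPM and lowest in control replicate 1 (201.1 TPM), as for Myod1. Its log2 difference was 0.61, and 0.28 without that library. Heyl, a Notch target, was at 26.3 ± 10.1 and 36.3 ± 10.4 TPM.

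Other factors of the satellite cell and premyogenic state were split evenly. Of 14 tested, 7 were higher and 7 lower, with a median log2 difference of −0.02. At an unadjusted p under 0.05 there were 2, both lower: Spry1, an inhibitor of growth factor signalling in satellite cells (81.2 ± 3.21 against 108.5 ± 11.7 TPM, log2 difference −0.41, adjusted p = 0.235), and Met, the receptor for hepatocyte growth factor (6.22 ± 0.519 against 8.56 ± 1.16 TPM, log2 difference −0.40, adjusted p = 0.327). In both, all knockout libraries lay below all controls, as in 3 of the 14 tested, beside 15.3% of all genes tested. The adhesion molecule Vcam1 was at 6.71 ± 2.38 and 9.67 ± 1.09 TPM, again with its highest knockout value in replicate 2 (9.42 TPM). Chodl was low throughout, at 2.18 ± 2.22 and 0.421 ± 0.652 TPM.

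The relatives, coactivators and repressors of Mef2 gave 10 higher and 14 lower of 24 tested, with a median of −0.03. At an unadjusted p under 0.05 there were 4 lower and 1 higher. The 4 lower were Ppp3ca, Mapk14, Carm1 and Hdac4. Ppp3ca, a catalytic subunit of calcineurin and not the only one, was at 35 ± 2.65 against 49.0 ± 4.69 TPM (log2 difference −0.47, limma adjusted p = 0.184). Mapk14, the p38α kinase that phosphorylates Mef2 proteins, was at 55.1 ± 2.64 against 79.7 ± 18.1 TPM (−0.50, limma adjusted p = 0.311). Its difference was −0.33 without control replicate 1. The coactivator methyltransferase Carm1 was at 80.6 ± 5.17 against 96.9 ± 1.94 TPM (−0.27, limma adjusted p = 0.298). The repressor Hdac4 was at 8.98 ± 0.741 against 12.0 ± 1.67 TPM (−0.38, limma adjusted p = 0.342). The 1 higher was Hdac5, another class IIa deacetylase that represses Mef2, with 89.9, 86.3 and 79.0 TPM in knockout and 58.5, 74.5 and 72.4 TPM in control. It lies outside the rule for named genes and was picked after its values were seen. Each of these 5 genes, picked by p, had groups that did not overlap. Of the 24 tested, 5 were lower and 1 higher without overlap, beside 15.3% and 4.27% of all genes.

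Textbook targets of the bHLH factors and of Mef2 were counted in the same way. Of 24 bHLH targets, 16 were higher and 8 lower, with a median of 0.15. Of 15 tested Mef2 targets, 4 were higher and 11 lower, with a median of −0.16. Over all genes tested the median was −0.07 and 64.5% were lower. At an unadjusted p under 0.05 there were 1 higher and 1 lower bHLH target, Casq2 and Tnni2, and 2 lower Mef2 targets, Ppargc1a and Slc2a4. Casq2, a calsequestrin, was at 1060 ± 48.2 against 878.4 ± 78.7 TPM (log2 difference 0.27, adjusted p = 0.374), and fast troponin I, Tnni2, was at 3400 ± 152 against 4734 ± 1160 TPM (−0.45, adjusted p = 0.394). The difference of Tnni2 was −0.26 without control replicate 1, and it was then no longer under an unadjusted p of 0.05, nor was it with median-of-ratios scaling. In all, 5 of the 24 bHLH targets were higher without overlap (Casq2, Acta1, Des, Mylpf and Tnni1) and 1, Tnni2, was lower without overlap. Over all genes tested the shares without overlap were 4.27% higher and 15.3% lower, on TPM as deposited. Overlap was not recounted after median-of-ratios scaling, which moves the balance of higher and lower genes as given above. The perinatal myosin heavy chain Myh8 was at 1801 ± 452 and 2517 ± 373 TPM, and the cell cycle inhibitor Cdkn1c at 31.4 ± 13.9 and 70.3 ± 34.7 TPM. Among Mef2 targets, the coactivator Ppargc1a was at 4.80 ± 0.364 against 6.82 ± 0.698 TPM (−0.43, adjusted p = 0.268) without overlap. The glucose transporter Slc2a4 was at 90.4 ± 19.8 and 161.6 ± 54.1 TPM and was highest in control replicate 1 (211.5 TPM). Smpx, a small muscle protein, was at 604.5 ± 30.1 and 739.2 ± 119 TPM, and the kinase Srpk3 at 73.4 ± 7.83 and 62.8 ± 8.32 TPM. Of the genes named from these 6 lists at an unadjusted p under 0.05, Spry1, Ppp3ca and Ppargc1a stayed under it in every alternative run and the others did not; Hdac5 was not run.

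**Figure D5:**
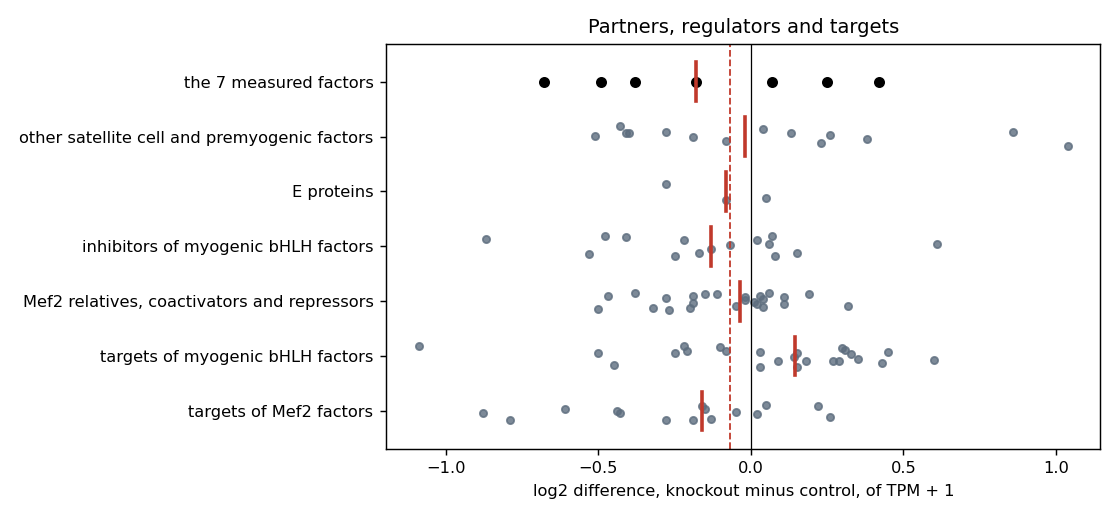
Log2 difference of TPM + 1 (horizontal axis, knockout minus control) for the 7 measured factors (black) and for tested genes of 6 related lists (grey, spread vertically for clarity); red bars are list medians and the dashed line is the median of all genes (−0.07). The medians run from −0.18 for the factors to 0.15 for the bHLH targets.

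Marker lists were read as levels, and in limma 0 of their tested genes had an adjusted p under 0.05. At an unadjusted p under 0.05 there were 1 of 2 tested fibroblast markers (Col1a1) and 2 of 4 proliferation markers (Mki67 and Ccnb1). All were lower in knockout, beside 9.62% of all genes tested. The Ccnb1 call was lost with the replicate block. It was also lost with any 1 library left out other than knockout replicate 2 or control replicate 3. Mki67 was not run in the alternatives. The 6 skeletal muscle markers summed to 51004 to 52108 TPM in knockout and 43998 to 46444 TPM in control, and 0 of the 6 had an unadjusted p under 0.05. Most of the difference in that sum was Acta1 (30842 against 24426 TPM on average), whose log2 difference of 0.33 was 0.41 after median-of-ratios scaling. Quantile normalization gave 0.00, but it sets genes of equal rank to equal values and so cannot show a difference where rank is unchanged. Of the other markers Des and Myh3 were above control, while Ckm (−0.22), Tnnt3 (−0.25) and Ttn (−0.02) were below it. The adipocyte gene Pparg stood at 1.51 to 1.82 TPM in knockout and 0.967 to 1.43 TPM in control, without overlap, with Adipoq and Plin1 under 0.1 TPM. The pericyte gene Pdgfrb stood at 1.55 to 2.16 and 1.87 to 4.49 TPM. The 6 fibroblast markers summed to 153.5 to 214.2 TPM in knockout and 196.2 to 289.9 TPM in control, with overlap. Most of that was collagen: Col3a1 stood at 160.2 ± 24.7 and 205.3 ± 43.0 TPM and Col1a1 at 15.9 ± 7.84 and 47.4 ± 24.9 TPM, and all Col1a1 knockout values lay below all controls. The more specific Pdgfra stood at 0.527 to 0.710 TPM in knockout and 0.719 to 1.41 TPM in control, and Dcn and Lum reached at most 4.39 and 0.0217 TPM. The part of these differences in the levels of Pax7 and Myf5 was not tested.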

How the data were processed

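For each of 6 polyA RNA libraries (Ion Proton) the authors deposited TPM by RefSeq transcript accession. The submitters' processing notes name STAR 2.4.1d and mm10. The sources used here do not give the quantification tool, annotation release or use of strand. Of 34671 accessions, 30824 were named by a RefSeq table of GRCm38.p6 and 103 by GENCODE; 3744 (10.8%, holding 1.18% to 1.27% of TPM) kept their accession. TPM was summed per symbol. Each measured member has 1 accession, so the planned test by transcript equals the test by gene, and Mef2 shares are of Mef2a and Mef2d.

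Genes reaching 1 TPM in 3 or more libraries entered limma 3.58.1 (R 4.3.3), log2(TPM + 1), intensity trend, no block, 2-sided, Benjamini-Hochberg at 0.05. The fit was also run on simulated data with independent noise and planted shifts larger than any member's difference in the main fit. That run does not measure how well differences of the members' size are found. Single ratios used exact permutation over libraries (scipy 1.17.1). Named are the members, up to 4 genes per list with the smallest p, up to 3 per marker list by level and the 2 genes most like each member. The members, lists and tests were chosen with earlier results of these data known, and 10 of the 14 ratios, shares and sums after their values were seen. Alternatives covered pseudocounts, filters, scalings, moderation, a replicate block, coding accessions and each library left out. Depth per library is unknown, so no counting interval is given.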

Additional observations from a re-analysis of the deposited data

How the results depend on the processing

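All 7 members kept their direction and an adjusted p above 0.05 in each of 17 alternatives, whereas the unadjusted call of Myf5 was lost in several, as given above. Without the trend in limma 1 gene was called higher and 1 lower over all genes, with a pseudocount of 5 the numbers were 2 and 11, and with a mean TPM of at least 5 they were 1 and 6; no member was among them. Over scalings, pseudocounts and filters the log2 difference ran from −0.71 to −0.59 for Myf5, −0.40 to −0.29 for Pax7 and 0.18 to 0.32 for Myog. Leaving out 1 library gave −1.02 to −0.51 for Myf5, −0.50 to −0.25 for Pax7, 0.07 to 0.66 for Myod1, 0.04 to 0.40 for Myog, −0.92 to −0.05 for Myf6, −0.24 to −0.08 for Mef2a and 0.02 to 0.12 for Mef2d. Libraries with the same replicate number did not deviate alike from their group means (r of deviations −0.26, −0.25 and 0.05 for numbers 1, 2 and 3). Unlike numbers gave −0.27 to 0.41. With 3 libraries per group these values are tied together and cannot show whether the numbers pair the samples. A fit with the replicate block gave −0.68 for Myf5 and −0.38 for Pax7, with 836 genes lower and 224 higher at an unadjusted p under 0.05. Of 34 other named genes, Sfpq passed with a pseudocount of 5 or a mean TPM of at least 5, and, with 1 library left out, Cdk1 ran from −0.33 to 0.06 (0.06 without Sfpq knockout replicate 1) and Tcf12 from −0.23 to 0.09 (0.09 without control replicate 2). The share planned for Mef2c was not run. Groups of 3 cannot give an exact p below 0.1.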
